A study of Mus musculus with 6 samples.

Results

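Wnt/beta-catenin targets and Tcf/Lef factors were described in the epithelium and the mesenchyme of the bladder neck and urethra of mouse embryos. The list held 9 genes chosen by name, namely the factors Lef1, Tcf7, Tcf7l1 and Tcf7l2, the targets Axin2, Nkd1, Nkd2 and Sp5, and the receptor Kremen1. Of these, 8 have a probe set (a group of short probes read as 1 value) among the 18193 genes that the array annotation names. No probe set is named Tcf7 in that annotation, so Tcf7 was not analysed here. All samples came from wild-type FVB/N embryos at embryonic day 13 (Theiler stage 21), with sex unknown and no pooling, and no treatment other than the trypsin digestion that let both layers be parted with a needle. Epithelium (urothelium in the titles) was hybridised to 3 arrays, numbered 1, 2 and 5, and mesenchyme to 3, numbered 1, 2 and 3. No label ties an array to a separate embryo, and p-values therefore measure only the spread between these samples, which may be technical.

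Wnt proteins stabilise beta-catenin, which enters the nucleus and binds the Tcf/Lef proteins, DNA-binding factors that otherwise recruit repressors. Axin2, Nkd1 and Sp5 are widely used readouts of this step, and Nkd2 was listed with them. Several of these genes feed back on the pathway. Axin2 is a scaffold of the complex that destroys beta-catenin. The Naked cuticle proteins Nkd1 and Nkd2 bind Dishevelled, the protein that relays the signal from the receptor. Kremen1 is a membrane receptor for Dickkopf proteins, secreted Wnt inhibitors. In the lower urinary tract and the genital tubercle, Wnt signals are known to pass between epithelium and mesenchyme.

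The DNA site of Tcf/Lef factors is short, and the promoters of the list were searched for it in RefSeq sequence (build GRCm38.p6, windows of 300 bases, 250 of them before the annotated start). The letters searched were CTTTG followed by AA, AT, TA or TT, on both strands, and overlapping matches were allowed. Promoter windows were found for 8 of the 9 genes, all but Kremen1, and 3 of their 13 windows (23.1%) held a match, against 16.9% of all 32851 windows. A match describes letters and not a bound site. The 3 windows with a match are shown because they belong to genes of the list and hold the letters, which stand in capitals. That of Sp5 lies at chr2:70474673-70474972 on the plus strand, with matches starting at -222 and -104 from the start. That of Lef1 lies at chr3:131156044-131156343 on the plus strand, the most downstream of 4 Lef1 windows, with a match at -147. That of Tcf7l2 lies at chr19:55895071-55895370 on the plus strand, the more downstream of 2 windows, with a match at -14.
Sp5: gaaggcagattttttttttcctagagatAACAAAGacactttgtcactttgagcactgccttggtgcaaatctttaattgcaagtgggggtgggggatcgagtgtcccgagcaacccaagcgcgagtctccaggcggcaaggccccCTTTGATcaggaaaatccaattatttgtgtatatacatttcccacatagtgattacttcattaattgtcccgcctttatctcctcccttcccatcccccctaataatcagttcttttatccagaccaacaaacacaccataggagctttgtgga
Lef1: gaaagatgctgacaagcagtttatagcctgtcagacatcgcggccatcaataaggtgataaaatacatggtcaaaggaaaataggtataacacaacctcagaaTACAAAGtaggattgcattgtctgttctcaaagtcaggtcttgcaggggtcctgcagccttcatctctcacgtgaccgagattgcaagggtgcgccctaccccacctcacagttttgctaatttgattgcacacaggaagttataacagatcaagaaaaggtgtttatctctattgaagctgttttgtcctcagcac
Tcf7l2: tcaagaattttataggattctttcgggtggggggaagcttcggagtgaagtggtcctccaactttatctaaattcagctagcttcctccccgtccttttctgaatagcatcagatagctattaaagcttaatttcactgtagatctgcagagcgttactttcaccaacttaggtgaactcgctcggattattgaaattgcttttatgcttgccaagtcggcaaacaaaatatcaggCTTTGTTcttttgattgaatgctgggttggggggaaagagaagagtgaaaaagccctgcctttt
Matches written AACAAAG and TACAAAG are the other strand of CTTTGTT and CTTTGTA. The windows of Axin2, Nkd1, Nkd2, Tcf7l1 and Tcf7 held none of these letters, which says nothing of sites elsewhere.

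The labels of the layers were checked against marker genes. Of 8 epithelial markers, 3 were higher in epithelium over all 6 arrays (limma, adjusted p under 0.05) and 8 without mesenchyme 1. Of 10 mesenchymal markers, 4 and 8 were higher in mesenchyme in the same fits, and none of either list went the other way. The array labelled mesenchyme 1 stood apart: 7 markers of other organs, such as liver albumin, summed to 246655 signal units on it and to at most 1057 on any other array, and 8 epithelial markers summed to 57067 on it, against 12938 and 2515 on mesenchyme 2 and 3. Layer differences of the named genes are therefore given with and without mesenchyme 1. Endothelial markers summed to 477 to 1475 units in epithelium and 9004 to 13401 units in mesenchyme, neuronal markers to 463 to 974 units in epithelium and 19498 to 29178 units in mesenchyme, and leukocyte markers to 1552 to 3247 units in epithelium and 5796 to 33433 units in mesenchyme. Smooth muscle markers summed to 4824 to 10730 units in epithelium and 23039 to 51792 units in mesenchyme, and the layers overlapped for erythroid markers (11255 to 50247 units in epithelium, 7734 to 57812 units in mesenchyme). The erythroid sum was 7734 units on mesenchyme 1, while mesenchyme 2 and 3 (57812 and 57759 units) lay above all epithelial arrays. Hbb-y made most of this sum except on mesenchyme 1, where it read 2301 units and Alas2 read 5420. Glial and neural crest markers summed to 17090 to 24551 units in epithelium and 6895 to 12048 units in mesenchyme, mostly from Erbb3, which epithelia also express. None of the markers reads 0 on an array, and Tie1, Aif1, Flg and Myh6 lay below the signal filter. The part of these other cells in the layer differences below was not tested, and in such bulk samples fewer cells of a type and less RNA per cell cannot be told apart.

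Few of the 8 measured genes passed the test between the layers. Over all 6 arrays 0 of 8 passed the threshold in limma (adjusted p under 0.05, where 5.98% of 13717 tested genes passed), and 3 of 8, Lef1, Nkd2 and Kremen1, had an unadjusted p under 0.05 (19.5% of all genes). Without mesenchyme 1, 1 of 8 passed, Kremen1, which was higher in epithelium, where 6.37% of 13587 genes passed in that direction and 14.5% in either. In that fit 2 of 8, Nkd2 and Kremen1, had an unadjusted p under 0.05 (26.4% of all genes). Differences are given as epithelium minus mesenchyme on the scale of quantile-normalized log2(signal + 16), which understates those of dim genes, with limma's standard error (SE) and 95% interval. Their median over the 8 genes was -0.28 with all arrays and -0.61 without mesenchyme 1, against 0.12 and 0.02 over all tested genes. The 3 arrays of each layer did not overlap for 4 of the 8 genes, Tcf7l2 and Kremen1 with epithelium above and Nkd2 and Sp5 with mesenchyme above (28.8% of all genes did not overlap, 15.5% with epithelium above and 13.2% with mesenchyme above). The same 4 did not overlap without mesenchyme 1, where 45.4% of all genes did not, 23.1% with epithelium above and 22.3% with mesenchyme above. With every probe set tested on its own over 6 arrays, 0 of the list's 16 probe sets above the filter passed in limma, where 4.37% of 23465 passed.

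**Figure D1:**
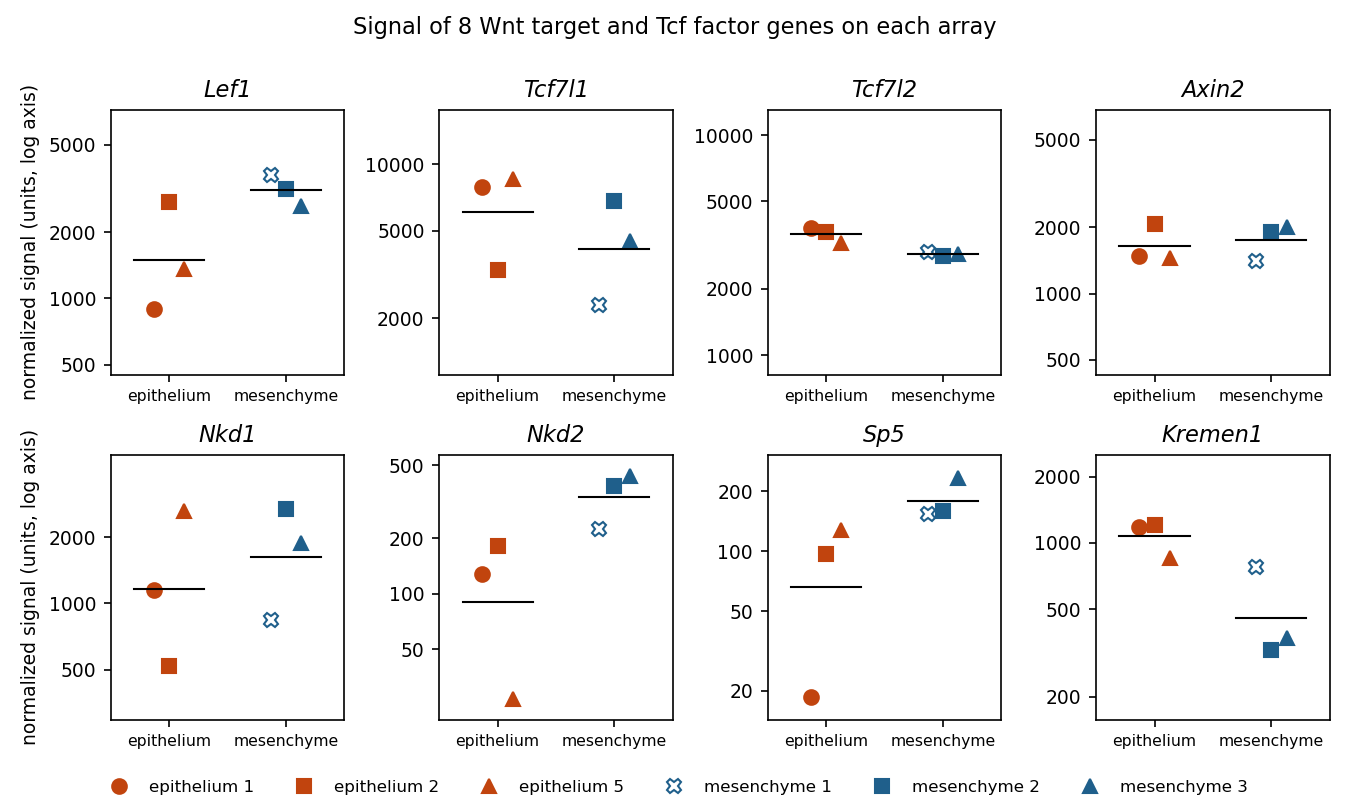
Normalized signal of each gene's brightest probe set on every array (log axis, in units of the deposited signal), with epithelium on the left and mesenchyme on the right of each panel; the bar is the mean on the log2(signal + 16) scale and the open cross is mesenchyme 1. Only Tcf7l2, Nkd2, Sp5 and Kremen1 have layers that do not overlap, and mesenchyme 1 (774) is the mesenchymal array nearest to epithelium for Kremen1.

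Among the Tcf/Lef factors, Lef1 had the widest gap by brightest probe set, and it did not pass the threshold with all arrays or without mesenchyme 1. Lef1, whose protein needs beta-catenin to activate its targets, read 893, 2740.2 and 1360 units in epithelium 1, 2 and 5, against 3649, 3158 and 2647 units in mesenchyme 1, 2 and 3 (1454734_at). Epithelium 2 lay among the mesenchymal arrays, and the other epithelial arrays lay below all of them. The difference was -1.06 ± 0.44 (SE, n = 3 each, 95% interval -2.10 to -0.017, limma adjusted p = 0.249) with all arrays and -0.97 ± 0.47 (adjusted p = 0.255) without mesenchyme 1. The value depended on single epithelial arrays. Without epithelium 1 it was -0.69 over the other 5 arrays (limma adjusted p = 0.585) and -0.59 (adjusted p = 0.506) with mesenchyme 1 left out too. Without epithelium 2 it was -1.45 (limma adjusted p = 0.0809) and -1.37 (adjusted p = 0.00649), the last with 2 arrays left per layer. The sum of the 10 mesenchymal markers was 44531 units on epithelium 2, against 25036 and 37425 on epithelium 1 and 5. Single markers were split: among the epithelial arrays Col3a1, Lum, Pdgfra, Prrx1 and Twist1 were highest on epithelium 2, the others on epithelium 5. The 5 endothelial markers summed to 1475 units on epithelium 2, against 477 and 568. Smooth muscle markers summed to 5003 units there, against 4824 and 10730, and leukocyte markers to 1552, against 1847 and 3247. The part of any of these markers in the Lef1 value was not tested. A second Lef1 probe set, below the filter, read at most 50.1 units on any array.

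Tcf7l1, known mainly as a repressor of Wnt targets, had no direction shared by its probe sets. Its brighter probe set (1436207_at) read 7880, 3310 and 8577 units in epithelium 1, 2 and 5, against 2290.4, 6820 and 4473 units in mesenchyme 1, 2 and 3. The layers overlapped widely, with a difference of 0.56 ± 0.52 (limma adjusted p = 0.599) and, without mesenchyme 1, of 0.13 ± 0.45 (95% interval -0.92 to 1.19). The second probe set (1450117_at) read 5146, 2736 and 4105 units in epithelium, against 3556, 5429 and 8164 units in mesenchyme, a difference of -0.48 ± 0.39 with all arrays (limma adjusted p = 0.575) and of -0.79 ± 0.34 without mesenchyme 1 (adjusted p = 0.227). The probe sets thus pointed in opposite directions, neither past the threshold. Leaving out epithelium 5 turned the brighter one to -0.52 over the remaining 5 arrays, and the mean of both was -0.33 without mesenchyme 1.

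Tcf7l2, the factor known from intestinal stem cells, varied least among the factors. It read 3784, 3611 and 3238 units in epithelium 1, 2 and 5, against 2953, 2816 and 2881 units in mesenchyme 1, 2 and 3 (1429428_at). Each epithelial array lay above each mesenchymal one, by a small margin. The difference was 0.29 ± 0.25 (1.23-fold, limma adjusted p = 0.56) with all arrays and 0.32 ± 0.22 (95% interval -0.21 to 0.85, adjusted p = 0.446) without mesenchyme 1. A layer difference of more than 1.80-fold in either direction lies outside this interval, which holds for this probe set alone. The 2 other Tcf7l2 probe sets above the filter had differences of the same sign. That of 1429427_s_at was 0.65 ± 0.33 (limma adjusted p = 0.376) with all arrays and 0.55 ± 0.29 (adjusted p = 0.344) without mesenchyme 1. That of 1425229_a_at was 0.93 ± 0.48 (limma adjusted p = 0.385) and 0.94 ± 0.50 (adjusted p = 0.343). Without mesenchyme 1, the 95% intervals of these 2 probe sets reached 2.37-fold and 4.34-fold, in that order. Both carry suffixes of probe sets that can match several transcripts.

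**Figure D2:**
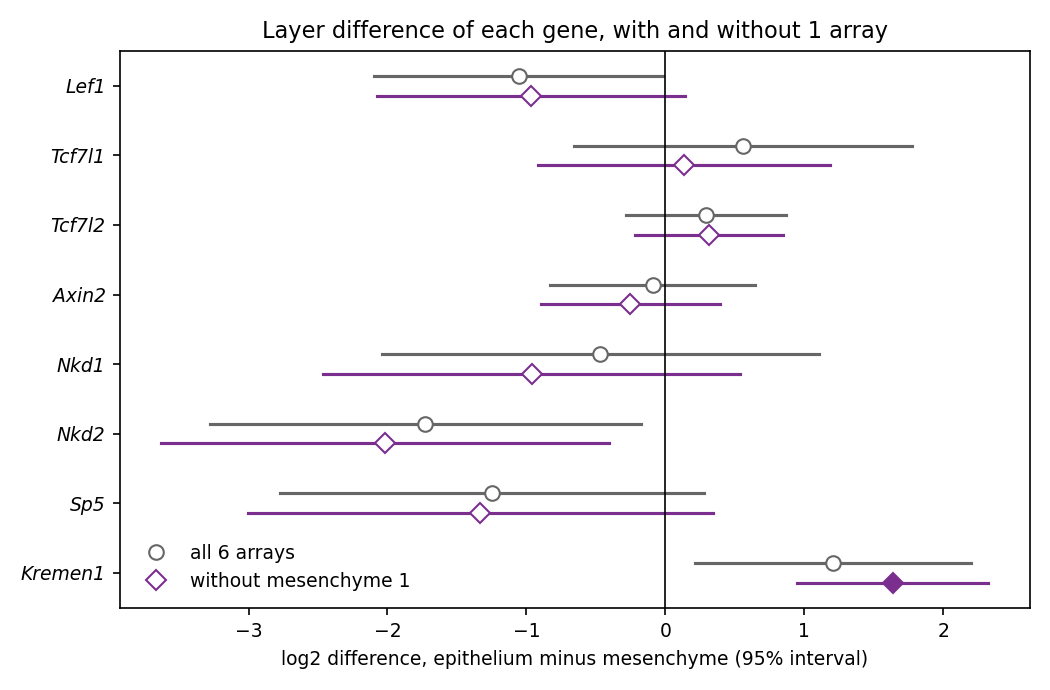
Difference of each gene on the log2 scale, epithelium minus mesenchyme, with its 95% interval, for all 6 arrays (circles) and without mesenchyme 1 (diamonds); a filled symbol has an adjusted p under 0.05. Kremen1 without mesenchyme 1 (1.64) is the only filled symbol, and the intervals of Axin2 and Tcf7l2 are the narrowest.

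Axin2, the target most often used to report beta-catenin activity, did not differ between the layers beyond its spread. It had 1482, 2084 and 1449 units in epithelium 1, 2 and 5, against 1413, 1910 and 2010 units in mesenchyme 1, 2 and 3 (1436845_at). The layers overlapped fully, and each spanned less than 1 log2 unit. Its difference was -0.092 ± 0.31 (limma adjusted p = 0.895) with all arrays and -0.25 ± 0.27 (adjusted p = 0.639) without mesenchyme 1. The 95% interval of the second value, -0.90 to 0.39, leaves out a layer difference of more than 1.86-fold in either direction. A second Axin2 probe set, below the filter, read 4.6 to 22.8 units and was not tested.

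Nkd1 varied within the layers more than between them. It read 1154, 522 and 2634 units in epithelium 1, 2 and 5, against 839.7, 2693 and 1888 units in mesenchyme 1, 2 and 3 (1429506_at). Epithelium 5 matched the brightest mesenchymal array, and epithelium 2 was the dimmest of all 6. The difference was -0.47 ± 0.67 (limma adjusted p = 0.734) with all arrays and -0.96 ± 0.64 (adjusted p = 0.411) without mesenchyme 1. The 2 dimmer Nkd1 probe sets above the filter had differences of 0.92 ± 0.63 (1429507_at) and 0.082 ± 0.58 (1440446_at) with all arrays, and of 0.40 ± 0.52 and 0.21 ± 0.64 without mesenchyme 1, so the probe sets disagreed in sign.

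Nkd2 had lower mean signals in epithelium on 3 probe sets. With each tested on its own, 1 passed the threshold, and only without mesenchyme 1. The brightest (1434275_at) read 127, 181 and 26.9 units in epithelium 1, 2 and 5, against 226, 385 and 438 units in mesenchyme 1, 2 and 3. Each mesenchymal array lay above each epithelial one, with epithelium 5 far below the rest. The difference was -1.73 ± 0.66 (3.31-fold, limma adjusted p = 0.207) with all arrays and -2.02 ± 0.68 (4.04-fold, 95% interval -3.63 to -0.40, adjusted p = 0.108) without mesenchyme 1. Leaving out epithelium 5 moved it to -1.11 (limma adjusted p = 0.402) over the other 5 arrays and to -1.42 (adjusted p = 0.052) without mesenchyme 1. With epithelium 2 and mesenchyme 1 left out it passed the threshold (-1.59, limma adjusted p = 0.045). It also passed over all arrays with array weights (-1.68, limma adjusted p = 0.0149), whose estimate stopped before it converged. The second probe set (1419466_at) had 67.5, 59.5 and 131 units in epithelium, against 223, 288 and 352 units in mesenchyme. The third (1419465_at) had 83.9, 54.9 and 49.9 units in epithelium, against 81.1, 271 and 275 units in mesenchyme, where mesenchyme 1 read as the epithelium did. With every probe set tested on its own over 6 arrays, the second differed by -1.62 ± 0.46 (limma adjusted p = 0.117) and the third by -1.37 ± 0.58 (adjusted p = 0.29). With mesenchyme 1 left out of that test, the third passed the threshold (-1.90 ± 0.47, limma adjusted p = 0.0463, where 10.4% of 23461 probe sets passed) and the second did not (-1.78 ± 0.48, adjusted p = 0.0642). The mean of the 3 probe sets passed too in that comparison (-1.90, limma adjusted p = 0.0218). All of these signals lie within a few-fold of the filter level of 96.3 units, and the probe sets share the gene, so they are not independent measurements.

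Sp5, a zinc finger factor and direct Wnt target, was the dimmest gene of the list. It read 18.6, 97.1 and 128 units in epithelium 1, 2 and 5, against 155, 159 and 235 units in mesenchyme 1, 2 and 3 (1422914_at, its single probe set). The layers did not overlap, although epithelium 5 and mesenchyme 1 were close and epithelium 1 lay well below all others. The difference was -1.25 ± 0.65 (limma adjusted p = 0.35) with all arrays and -1.33 ± 0.71 (95% interval -3.01 to 0.34, adjusted p = 0.301) without mesenchyme 1. Leaving out epithelium 1 moved it to -0.62 (limma adjusted p = 0.679) over the other 5 arrays and to -0.71 (adjusted p = 0.47) without mesenchyme 1. Whether Sp5 was above background in either layer was not analysed here.

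Kremen1 was the gene with the clearest excess in epithelium. It read 1186, 1211 and 853 units in epithelium 1, 2 and 5, against 774, 326 and 368 units in mesenchyme 1, 2 and 3 (1435472_at). The epithelial arrays lay above all mesenchymal ones, and mesenchyme 1 lay closer to epithelium 5 than to mesenchyme 2 and 3. The difference was 1.21 ± 0.42 (2.31-fold, limma adjusted p = 0.17) with all arrays and 1.64 ± 0.29 (3.11-fold, 95% interval 0.95 to 2.33, adjusted p = 0.0102) without mesenchyme 1. The summed epithelial markers likewise set mesenchyme 1 between epithelium and the other mesenchymal arrays. They reached 159488 to 184577 units in epithelium, 57067 units in mesenchyme 1, and 12938 and 2515 units in mesenchyme 2 and 3. Of these markers only Grhl2 was not so ordered, with 565 units in mesenchyme 1, against 675 and 230.5 in mesenchyme 2 and 3. Markers of other organs summed to 246655 units in mesenchyme 1. The part of either set of markers in the Kremen1 value was not tested.

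The Kremen1 call depended on the arrays kept and on the probe set. With mesenchyme 1 left out, it was lost when epithelium 1 (1.57, limma adjusted p = 0.0554), mesenchyme 2 (1.55, adjusted p = 0.112) or mesenchyme 3 (1.71, adjusted p = 0.0913) was left out as well, while its size hardly moved. A dimmer Kremen1 probe set (1421387_at) read 289, 138 and 9.9 units in epithelium 1, 2 and 5, against 98, 123 and 146 units in mesenchyme 1, 2 and 3. Its layers overlapped, with a difference of -0.36 ± 0.89 (limma adjusted p = 0.863) with all arrays and -0.47 ± 0.99 (adjusted p = 0.846) without mesenchyme 1. The mean of both probe sets was 0.58 (limma adjusted p = 0.601) without mesenchyme 1.

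**Figure D3:**
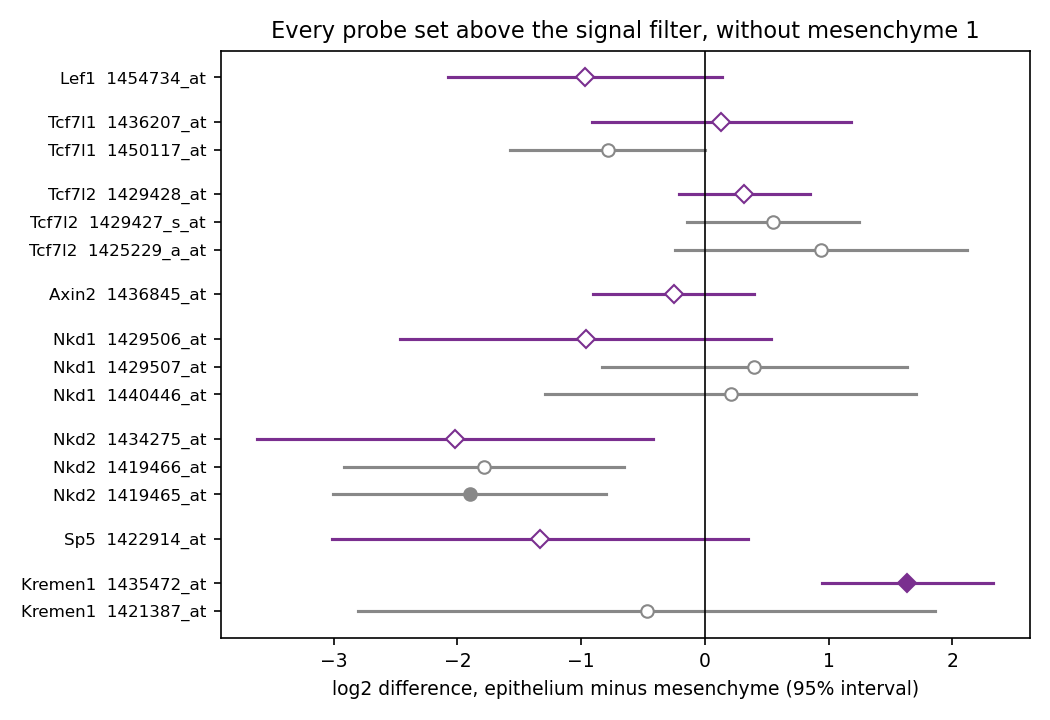
Difference of every probe set above the signal filter on the log2 scale, epithelium minus mesenchyme, with its 95% interval, without mesenchyme 1; diamonds are the brightest probe set of a gene, circles its others, and filled symbols have an adjusted p under 0.05. The 3 Nkd2 probe sets lie between -2.02 and -1.78, those of Tcf7l1, Nkd1 and Kremen1 lie on both sides of 0, and 6 further probe sets of the list lay below the filter.

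Among the Dickkopf genes tested as partners of Kremen1, Dkk1 and Dkk2 were higher in mesenchyme without mesenchyme 1. Dkk3 did not pass the threshold (-0.79 ± 0.39, limma adjusted p = 0.329, and -0.41 ± 0.25, adjusted p = 0.377, without mesenchyme 1). Dkk1, a Dickkopf inhibitor that Kremen1 binds, read 212, 401 and 235 units in epithelium 1, 2 and 5, against 856, 1328 and 1144 units in mesenchyme 1, 2 and 3. It was higher in mesenchyme in both fits (-1.94 ± 0.39, limma adjusted p = 0.0317, and -2.18 ± 0.36, adjusted p = 0.00745, without mesenchyme 1). With all arrays this call ended when any of epithelium 1, epithelium 5, mesenchyme 2 or mesenchyme 3 was left out, at limma adjusted p from 0.115 to 0.159, and also with median centring (0.0507) or no filter (0.0534). Dkk2 read 181, 563 and 428 units in epithelium, against 125, 2314 and 2221 units in mesenchyme, where mesenchyme 1 was the dimmest array of all. Its difference was -1.29 ± 1.10 (limma adjusted p = 0.566) with all arrays and -2.70 ± 0.47 (adjusted p = 0.00971) without mesenchyme 1. Without mesenchyme 1, the calls of Dkk1 and Dkk2 ended when mesenchyme 2 or 3 was left out, which leaves 1 mesenchymal array. Of 7 partner genes, 4 were tested; 2 were higher in mesenchyme without mesenchyme 1 (8.17% of all genes) and 0 in epithelium (6.37%). The median difference of the 4 was -1.30, against 0.02 over all tested genes.

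Ctnnb1, which encodes beta-catenin, read 61086, 55793 and 59822 units in epithelium 1, 2 and 5, against 56227, 61385 and 53589 units in mesenchyme 1, 2 and 3. The layers overlapped, with a difference of 0.047 ± 0.10 (limma adjusted p = 0.837) over all arrays and 0.036 ± 0.11 (adjusted p = 0.881) without mesenchyme 1. With median centring it was 0.61 and 0.50, and without normalization it was 0.44 over all arrays (limma adjusted p = 0.467). The small SE above thus holds for quantile-normalized values only. The mean of the Ctnnb1 probe sets differed by 0.57 over all arrays (limma adjusted p = 0.403). Array weights, whose estimate stopped before it converged, gave 0.18 (limma adjusted p = 0.03) over all arrays. In limma, 0 of 11 tested genes of the beta-catenin destruction complex passed in either fit, and 0 of 5 tested transducers (Dishevelled, Lrp and related genes), where 5.98% of all genes passed with all arrays and 14.5% without mesenchyme 1. Among 18 genes listed as nuclear partners 0 passed with all arrays and 1 without mesenchyme 1, Pygo1, a cofactor of beta-catenin. That list also holds Tcf3, a gene other than Tcf7l1. With so few genes, these counts do not set the lists apart from all genes. Pygo1 read 592, 765 and 462 units in epithelium, against 275, 1243 and 1428 units in mesenchyme. Its difference was -0.41 ± 0.64 (limma adjusted p = 0.759) with all arrays and -1.18 ± 0.31 (adjusted p = 0.0451) without mesenchyme 1, a call that ended in 8 of 16 alternatives (adjusted p 0.0071 to 0.346).

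Other reported Wnt target genes were split between the layers. Of 21 tested besides the list itself, 2 were higher in epithelium and 1, Dkk1, in mesenchyme with all arrays, where 1.95% and 4.03% of all genes were. Without mesenchyme 1 the counts were 6 and 4, where 6.37% and 8.17% of all genes passed. The median difference of the 21 was -0.12 with all arrays and 0.18 without mesenchyme 1. Sp8, a relative of Sp5, read 7107, 10232 and 4419 units in epithelium 1, 2 and 5, against 385, 167 and 83.4 units in mesenchyme 1, 2 and 3 (5.14 ± 0.58, limma adjusted p = 0.00549, and 5.78 ± 0.43, adjusted p = 0.00072, without mesenchyme 1). The homeobox gene Msx2 read 1086, 904 and 1049 units in epithelium 1, 2 and 5, against 230.0, 181 and 22.2 units in mesenchyme 1, 2 and 3. Its difference was 3.06 ± 0.71 (limma adjusted p = 0.053) with all arrays and 3.62 ± 0.65 (adjusted p = 0.0103) without mesenchyme 1, where the call ended when epithelium 1 was left out as well (0.0561). Twist1, a transcription factor that is also 1 of the 10 mesenchymal markers, read 333, 724 and 545 units in epithelium 1, 2 and 5, against 467, 3389 and 4294 units in mesenchyme 1, 2 and 3. It was lower in epithelium without mesenchyme 1 (-2.94 ± 0.37, limma adjusted p = 0.00285), and with that array included the layers overlapped (-1.87 ± 0.83, adjusted p = 0.273).

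Rnf43, a ligase that removes Wnt receptors, read 964, 997 and 595 units in epithelium, against 43.1, 40.1 and 49.9 units in mesenchyme (3.81 ± 0.41, limma adjusted p = 0.00484, and 3.86 ± 0.38, adjusted p = 0.00132, without mesenchyme 1). Its relative Znrf3 read 3453, 4826 and 3335 units in epithelium 1, 2 and 5, against 2256, 1093 and 1249 units in mesenchyme 1, 2 and 3 (1.38 ± 0.37, limma adjusted p = 0.0803, and 1.73 ± 0.27, adjusted p = 0.0063, without mesenchyme 1). Each epithelial array lay above each mesenchymal one for both genes. The mesenchymal values of Rnf43 lie below the filter level of 96.3 units, so Rnf43 passed the filter through its epithelial values. The size of its difference depended on the offset, with 4.21 at an offset of 1 and 3.04 at an offset of 64 over all arrays.

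Notum, an enzyme that inactivates Wnt proteins, read 362, 313 and 221 units in epithelium 1, 2 and 5, against 123, 92.7 and 15.8 units in mesenchyme 1, 2 and 3. Its difference was 1.98 ± 0.65 (limma adjusted p = 0.147) with all arrays and 2.38 ± 0.61 (adjusted p = 0.0424) without mesenchyme 1, and 1.49 (adjusted p = 0.284) when mesenchyme 3, the dimmest array, was left out as well. The R-spondin receptor Lgr5 read 677, 402 and 729 units in epithelium 1, 2 and 5, against 102, 172 and 219 units in mesenchyme 1, 2 and 3 (1.79 ± 0.45, limma adjusted p = 0.0661, and 1.55 ± 0.38, adjusted p = 0.0352, without mesenchyme 1). The layers of both genes did not overlap, with epithelium above.

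Msx1, a homeobox gene, read 227, 212 and 233 units in epithelium 1, 2 and 5, against 298, 753 and 925 units in mesenchyme 1, 2 and 3 (-1.35 ± 0.49, limma adjusted p = 0.183, and -1.88 ± 0.30, adjusted p = 0.00643, without mesenchyme 1). The cyclin gene Ccnd1 read 8444, 9746 and 12366 units in epithelium 1, 2 and 5, against 15380.2, 26443 and 20481 units in mesenchyme 1, 2 and 3 (-1.01 ± 0.26, limma adjusted p = 0.0712, and -1.20 ± 0.22, adjusted p = 0.0118, without mesenchyme 1). Here each mesenchymal array lay above each epithelial one. Of Rnf43, Znrf3, Notum, Lgr5, Msx1 and Ccnd1, only Rnf43 passed with all 6 arrays.

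Several of these calls ended with 1 array fewer or with other processing. Without mesenchyme 1, Sp8, Rnf43 and Twist1 kept adjusted p under 0.05 in limma in each of their alternatives (highest 0.00996, 0.0145 and 0.0412). Znrf3, Notum, Lgr5, Msx1 and Ccnd1 each lost it when mesenchyme 3 was left out, with adjusted p from 0.0693 for Znrf3 to 0.284 for Notum. All but Notum of these lost it when mesenchyme 2 was left out (0.0696 for Msx1 to 0.263 for Lgr5). Notum, Lgr5 and Ccnd1 lost it without epithelium 1 (0.145, 0.131 and 0.0518), and Lgr5 without epithelium 5 (0.0683). With median centring Znrf3 (0.0703) and Ccnd1 (0.0589) lost it. Notum lost it with an offset of 1 (0.0575), with no filter (0.0576) or with every probe set on its own (0.0529), and Lgr5 with no normalization (0.0777) or no filter (0.0703). Znrf3, Notum, Lgr5, Msx1 and Ccnd1 were named after their values were seen.

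**Figure D4:**
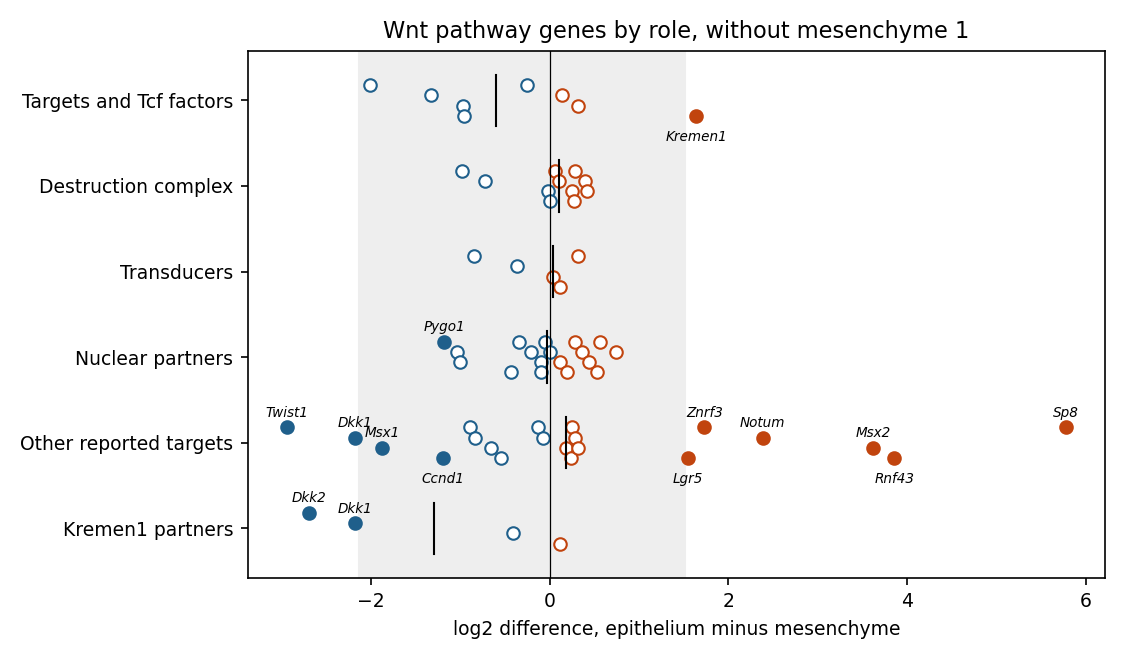
Difference of each tested gene on the log2 scale, epithelium minus mesenchyme, without mesenchyme 1, in rows by role; filled points have an adjusted p under 0.05 and are named, bars are row medians, and the grey band holds the middle of all tested genes, from the 5th to the 95th percentile (-2.13 to 1.52). Destruction complex genes and transducers lie within the band, and the spread is widest among other reported targets, from Twist1 (-2.94) to Sp8 (5.78).

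The genes with array profiles most like those of Axin2 and Lef1 were found by the root mean square distance of log2 values centred on each gene's mean over the 6 arrays, among 13716 other genes. For Axin2 these were Dock1 (distance 0.06), Arid5b (0.065) and Rbms1 (0.07), where the median gene lay at 0.561. For Lef1 they were Lrrk2 (0.112), Plcl1 (0.145) and Hook3 (0.154), with the median gene at 0.949. With 6 arrays and so many genes, close profiles are many, and these distances are a description.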

How the data were processed

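Samples, layers and probe set values are those of 1 deposited table. The authors' intensity values are linear signals, 1 per probe set and array; per the submitters' processing notes the tool was GCOS, the Affymetrix array software, with settings not stated. Once the highest and lowest 2% of probe sets were trimmed, the mean of each deposited array was 1500 units, and array medians lay between 126 and 254. Total RNA was amplified in 2 rounds, per the labels' protocols.

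Values were quantile normalized as log2(signal + 16). Of 45101 probe sets, 64 controls were left out, and 34945 of the rest name 1 gene, 932 several and 9160 none here. Probe sets whose mean exceeded the 40th percentile (96.3 units with all arrays, 86.5 without mesenchyme 1) were kept, and each gene was read from its brightest probe set. The layer difference was fitted by limma 3.58.1 under R 4.3.3 (lmFit, then eBayes with a trend), with Benjamini-Hochberg adjustment over all genes, on 6 arrays and without mesenchyme 1. The number of arrays limits precision. The code was tested on simulated data.

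The 9 genes, the pathway lists and the markers were chosen with earlier results of these data known. Named are the list's genes, up to 4 called genes of each pathway list with the largest difference in either fit, and Ctnnb1. Znrf3, Notum, Lgr5, Msx1, Ccnd1, Dkk3 and Tcf3 were added after their values were seen. Likeness could not be computed for Tcf7. Alternatives were other offsets, normalizations, filters, probe set choices, variance models, array weights, a replicate block and each array left out.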

Additional observations from a re-analysis of the deposited data

How the results depend on the processing

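With all 6 arrays, the count of list genes past the threshold was 0 in limma (3 at an unadjusted p under 0.05) and stayed 0 under the alternatives other than array weights and leaving out mesenchyme 1. Array weights, whose estimate stopped before it converged, gave 5 list genes and 5109 genes in all. The 5 were Lef1, Tcf7l1, Nkd2, Sp5 and Kremen1, at limma adjusted p from 0.00051 for Kremen1 to 0.0222 for Tcf7l1. Leaving out 1 array each gave 0 to 1 list genes and 142 (without epithelium 1) to 1975 genes (without mesenchyme 1), with over 1.5 times fewer also without epithelium 5 (241), mesenchyme 2 (192) or mesenchyme 3 (330). Without mesenchyme 1, 2 list genes passed with every probe set tested on its own, an alternative chosen after seeing the data, and leaving out a further array gave 0 to 3 list genes and 649 to 3878 genes. Without mesenchyme 2 or 3 as well, the lone mesenchymal array is assumed to vary like the epithelium.

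The sign of some genes turned between alternatives. Averaging all probe sets per gene put Nkd1 at 0.18 with all arrays and Tcf7l1 at -0.33 without mesenchyme 1. Over single arrays left out of all 6, Nkd1 ran from -1.05 to 0.098, Tcf7l1 from -0.52 to 0.98, Axin2 from -0.25 to 0.0041 and Pygo1 from -1.18 to 0.0038. Without mesenchyme 1, Tcf7l1 ran from -0.17 to 0.57 and Ctnnb1 from -0.063 to 0.14. Lef1, Nkd2, Sp5, Tcf7l2 and Kremen1 kept their sign in each alternative run. Sp5 and Nkd2 were not tested with the filter at the 60th percentile, and Sp5 not without mesenchyme 3. The median of all genes moved from 0.12 to 0.23 with median centring. The cause of these changes was not tested.

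The layers share the replicate numbers 1 and 2, which no label ties to an embryo. Deviations from the layer means correlated at -0.045 and -0.021 across genes for the same numbers. With the replicate block, which leaves 1 residual degree of freedom, 0 genes passed in limma (1460 at an unadjusted p under 0.05), Sp8 was at 4.98 (adjusted p = 0.1), Rnf43 at 4.11 (0.112), Dkk1 at -1.81 (0.413), Nkd2 at -0.89 (0.786), Axin2 at 0.096, Ctnnb1 at -0.0091 and Pygo1 at 0.19.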
